A study of Homo sapiens with 8 samples.

Results

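The DSM OE line is the breast cancer line MDA-MB-231 made to overexpress a mutant DAXX that has lost the function of both its SUMO-interacting motifs. Its 2 RNA-seq libraries were compared with the 2 libraries of the control line, which makes 4 of the 8 libraries of the series. Levels are in FPKM, the fragments mapped to a gene scaled by its transcript length and by the mapped fragments of the library. A gene entered if 2 or more of the 8 libraries reached an FPKM of 1. That rule kept 10465 of 36991 genes. The comparison asks how gene expression differs in cells that carry extra DAXX unable to bind SUMO. The other lines of the series carry extra wild-type DAXX (WT OE) or a DAXX shRNA (KD), and they are used here only to place the DSM OE values.

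The lines come from a triple-negative breast cancer of mesenchymal appearance. In the DSM OE line the mutant DAXX cDNA was introduced, in the WT OE line the wild-type cDNA, in the KD line the DAXX shRNA and in the control line a scrambled shRNA. All 4 were made by lentiviral transduction and selected with puromycin (2 µg/mL), and all still hold their own DAXX gene. The control carries no empty overexpression vector, so the cDNA vector and the mutant DAXX cannot be told apart in this comparison. Each line is 1 stable line sampled in 2 cultures, and p-values measure only the spread between such cultures, not between independently made lines. The letters WT also stand in the titles of the DSM OE samples, but the genotype label, which was used, gives DSM.

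DAXX is a chaperone that places the histone variant H3.3 on repetitive DNA together with ATRX, and it also binds transcription factors and represses or activates their targets. SUMO is a small protein that is joined to other proteins, and a SUMO-interacting motif is a short stretch through which a protein holds on to SUMO-modified partners. Through these motifs DAXX is drawn into PML nuclear bodies and to SUMO-modified transcription factors.

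DAXX had 64.6 and 93.8 FPKM in DSM OE, 158 and 283 FPKM in WT OE, 8.60 and 7.30 FPKM in KD, and 25.3 and 37.4 FPKM in control. Both DSM OE libraries were above both control libraries and below both WT OE libraries. The log2 fold change of DSM OE over control, taken on log2(FPKM + 1) as all fold changes here, was 1.31 (SE 0.34) with a limma adjusted p of 0.0661, so the difference did not pass the threshold of 0.05. Without 1 library at a time the estimate ran from 1.04 to 1.59. The deposited value does not separate the introduced cDNA from the cell's own transcript. All 10 markers listed for MDA-MB-231 had an FPKM of at least 1 in every library, while ESR1 and PGR, the receptors of luminal breast cancer, were listed at 0 in all 8.

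In DSM OE 577 genes were higher than in control (5.51% of the genes tested) and 576 were lower (5.5%), at an adjusted p under 0.05 in limma. Among them, 148 were higher by over 1 on the log2 scale and 157 were lower by over 1. The median log2 fold change was 0.76 for the higher genes, -0.78 for the lower genes and 0.02 for all genes tested. The median gene differed by 0.306 to 0.326 between a DSM OE and a control library, against 0.177 between the DSM OE duplicates and 0.160 between the control duplicates. In 579 genes the DSM OE duplicates lay over 1 log2 unit apart, and in 558 genes the control duplicates did. All 8 libraries entered the estimate of the spread. Removing 1 of a line outside the comparison therefore changed the counts but left the fold changes as they were. Removing DSM OE replicate 2 gave 133 higher and 212 lower genes, and removing DSM OE replicate 1 gave 187 and 285. Removing control replicate 1 gave 198 and 140, removing control replicate 2 gave 175 and 136, and removing either KD library gave 331 and 341.

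**Figure D1:**
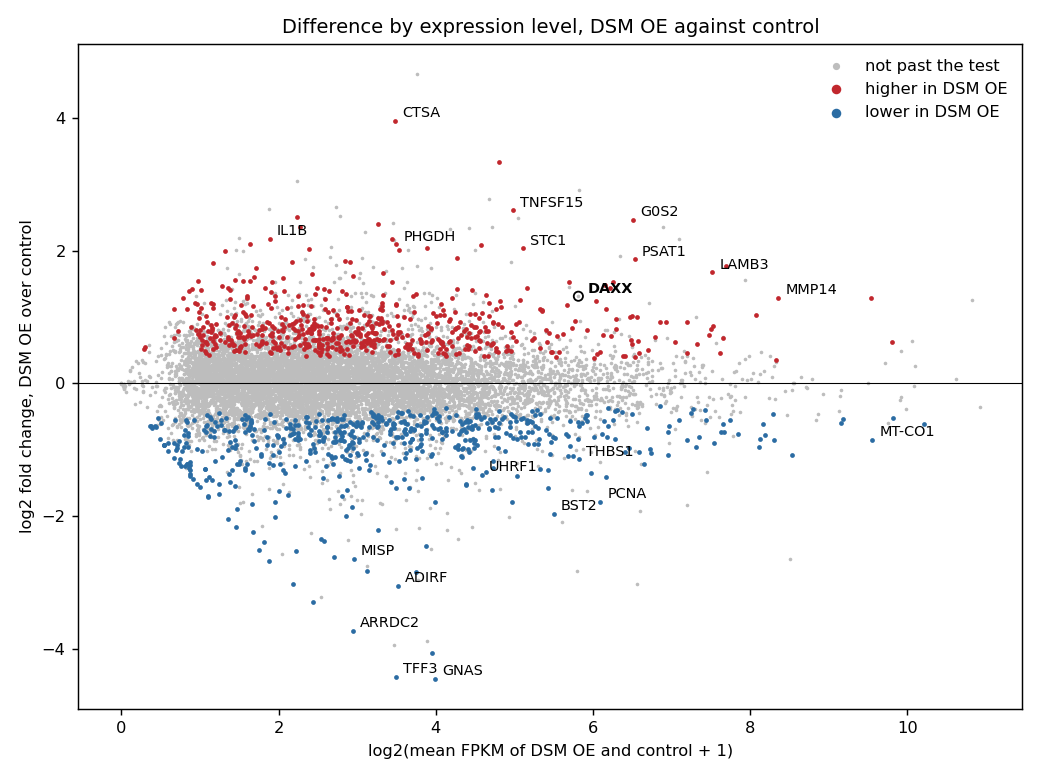
Each point is 1 of the 10465 genes tested, placed by its mean level in DSM OE and control (x axis, log2 of mean FPKM + 1) and by its log2 fold change of DSM OE over control (y axis). Red points are the 577 genes higher in DSM OE, blue points the 576 lower genes, and the open circle is DAXX at 1.31, which did not pass the test.

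Of the lists used here, that of the integrated stress response and of amino acid synthesis had the largest share of higher genes. In this response, kinases that sense amino acid shortage or other stress slow translation, the transcription factor ATF4 accumulates, and ATF4 with C/EBP partners turns on genes for making and importing amino acids. Of 39 tested members of the list, 17 were higher in DSM OE than in control and 1 was lower, against 5.51% and 5.5% over all genes. The median log2 fold change was 0.45 against 0.02 over all genes. Of the same 39 members, 29 had a fold change above 0 and 10 one below 0. The serine pathway, which builds serine from a glycolytic intermediate and passes its carbon to folate, was among the largest rises. PHGDH, its first enzyme, had 18.6 and 16.0 FPKM in DSM OE, 12 and 11 FPKM in WT OE, 2.06 and 1.88 FPKM in KD, and 3.48 and 3.06 FPKM in control. No library of one line overlapped with those of another, and the log2 fold change over control was 2.10 (SE 0.12, adjusted p = 0.0013). PSAT1, the next enzyme, had 149 and 139 FPKM in DSM OE, 92.5 and 91.2 FPKM in WT OE, 45.0 and 44.4 FPKM in KD, and 40.9 and 36.7 FPKM in control, again with DSM OE highest (1.87, SE 0.09, adjusted p = 0.00117). The folate enzymes that follow were also higher in DSM OE than in control. SHMT2, which moves a carbon from serine to folate in mitochondria, had 38.6 and 34.1 FPKM in DSM OE against 15 and 17.4 FPKM in control (1.12, SE 0.13). MTHFD2, which acts on that folate, had 24.5 and 20.1 FPKM against 8.41 and 9.87 FPKM (1.2, SE 0.20). PSPH, the last step to serine, had duplicates far apart in DSM OE, at 18.8 and 4.27 FPKM, against 10.2 and 11.5 FPKM in control, and gave no call (adjusted p = 0.865).

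CTH, which makes cysteine from cystathionine, had 15.6 and 14.5 FPKM in DSM OE, 8.69 and 7.02 FPKM in WT OE, 3.54 and 2.23 FPKM in KD, and 1.38 and 2.84 FPKM in control, a log2 fold change of 2.41 over control (SE 0.28, adjusted p = 0.00874). ASNS, which makes asparagine, had 16.4 and 18.8 FPKM in DSM OE, 13.6 and 11.8 FPKM in WT OE, 4.29 and 1.27 FPKM in KD, and 3.86 and 3.35 FPKM in control (2.01, SE 0.38, adjusted p = 0.029). SESN2, a leucine sensor that restrains mTORC1, had 29.0 and 29.6 FPKM in DSM OE, 16.8 and 12.2 FPKM in WT OE, 6.04 and 5.32 FPKM in KD, and 5.97 and 8.55 FPKM in control (1.89, SE 0.21, adjusted p = 0.00782). In all 3 genes the order of the lines was the same for DSM OE and WT OE, with the DSM OE libraries above both WT OE libraries and the KD and control libraries far below. A pair of the list's transporters was also higher. SLC7A11, the cystine importer, had 16.6 and 18.8 FPKM in DSM OE against 6.73 and 6.29 FPKM in control (1.31, SE 0.15). SLC7A5, an importer of large neutral amino acids, had 183 and 200 FPKM against 93.8 and 108 FPKM (0.92, SE 0.19). PCK2, the mitochondrial enzyme that forms phosphoenolpyruvate and lies outside the list, was among the 12 largest rises, with 13 and 20.7 FPKM in DSM OE against 2.72 and 3.0 FPKM in control (2.17, SE 0.30, adjusted p = 0.0131).

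ATF4 itself was higher by 0.45 (SE 0.11, adjusted p = 0.0496), with 247 and 207 FPKM in DSM OE, 244 and 228 FPKM in WT OE, 158 and 160 FPKM in KD, and 163 and 167 FPKM in control. Of its partners, CEBPG had 20.9 and 20.1 FPKM in DSM OE against 10.2 and 9.08 FPKM in control (1.02, SE 0.10). CEBPB had 60.7 and 81.1 FPKM against 37.0 and 35.4 FPKM (0.94, SE 0.21). CHAC1, which breaks down glutathione, NUPR1, DDIT4, an inhibitor of mTORC1, MTHFD1L and PPP1R15A, a phosphatase subunit that ends the response, made up the rest of the 17. The constitutive counterpart of PPP1R15A, PPP1R15B, was the 1 lower member, at 12.5 and 12.9 FPKM in DSM OE against 17.1 and 16.8 FPKM in control (-0.39, SE 0.09). TRIB3, an inhibitory target of ATF4, had 16.6 and 17.1 FPKM in DSM OE against 18.3 and 20 FPKM in control (adjusted p = 0.369), and the pro-apoptotic factor DDIT3 had 23.9 and 13.4 FPKM against 8.23 and 8.93 FPKM (adjusted p = 0.0712). TRIB3 and DDIT3 thus gave no call, and the DSM OE duplicates of DDIT3 lay apart.

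Against WT OE, 1 member of this list was higher in DSM OE (PSAT1, 0.65, adjusted p = 0.039, lost without any of the 8 libraries, highest adjusted p 0.132), with a median of 0.42 against 0.01 over all genes. At an unadjusted p under 0.05 in limma 16 members were higher and 2 lower than in WT OE. Against KD, 18 members were higher and 2 were lower, with a median of 0.64 against 0.00 over all genes. The shares over all genes were 0.65% higher than in WT OE, and 8.04% higher and 8.83% lower than in KD. With 1 library left out at a time the 17 higher members became 7 without control replicate 1, 8 without control replicate 2, 7 without DSM OE replicate 1, 9 without DSM OE replicate 2, 10 without either KD library and 14 without either WT OE library. CTH, PHGDH, SESN2, PSAT1, SLC7A11, SHMT2 and CEBPG kept an adjusted p under 0.05 with every one of the 8 libraries left out. ASNS lost it without any DSM OE, WT OE or control library (highest adjusted p 0.126). MTHFD2 lost it without any DSM OE or control library (highest 0.0924) and PCK2 without DSM OE replicate 2 or either control library (highest 0.0673). ATF4 lost it without any library but DSM OE replicate 2 (highest 0.161) and SLC7A5 without any DSM OE, KD or control library (highest 0.14). No library could be removed without the loss of CEBPB and PPP1R15B (highest 0.168 and 0.146).

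**Figure D2:**
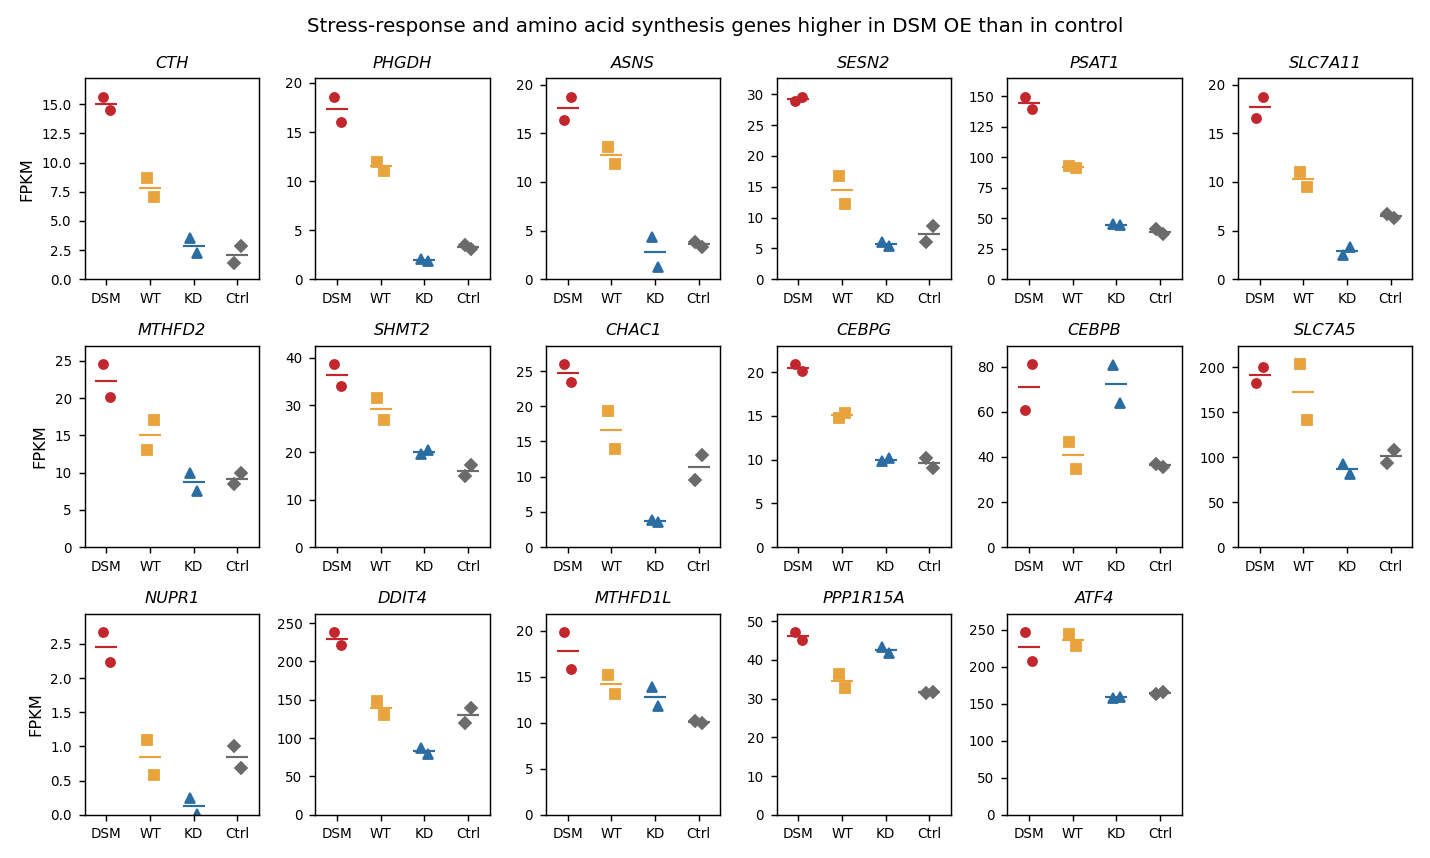
FPKM (y axis, from 0) of the 17 members of the stress-response and amino acid list that were higher in DSM OE than in control, in both libraries of DSM OE, WT OE, KD and control, with a bar at the mean of each pair. In PHGDH, PSAT1, CTH, ASNS and SESN2 both DSM OE libraries lie above both WT OE libraries, while ATF4 (247 and 207 FPKM in DSM OE, 244 and 228 FPKM in WT OE) and CEBPB (81.1 FPKM in the higher DSM OE library, 81.0 FPKM in the higher KD library) overlap with another line.

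The promoters of this list were read for the letters TGATGNAA, the form of the composite element to which ATF4 and C/EBP proteins bind, on both strands. The window runs from 250 bases before to 50 bases after each start site in the RefSeq annotation of GRCh38.p14, and 32 of the 39 tested members had a promoter entry. Where a gene has several start sites the first entry was read, so other start sites of ASNS and MTHFD1L are not covered. The letters stood in 7 of these 32 and in 1.58% of the 8353 promoters of genes tested. Of 14 promoters of higher members 3 held them, those of CHAC1, ASNS and MTHFD1L, which are printed below with the match in capitals. The match begins 209 bases before the start site in CHAC1, where it lies on the other strand, 68 bases before it in ASNS and 129 bases before it in MTHFD1L. The other 4 matches were in ATF3, SLC3A2 and SLC7A1, which gave no call, and in PPP1R15B, which fell. Matches were thus not confined to members that rose. PHGDH, PSAT1, CTH and SESN2 do not hold these letters in the window, and a match is a description of the sequence, not a measured site.
CHAC1, chr15:40953221-40953520, plus strand: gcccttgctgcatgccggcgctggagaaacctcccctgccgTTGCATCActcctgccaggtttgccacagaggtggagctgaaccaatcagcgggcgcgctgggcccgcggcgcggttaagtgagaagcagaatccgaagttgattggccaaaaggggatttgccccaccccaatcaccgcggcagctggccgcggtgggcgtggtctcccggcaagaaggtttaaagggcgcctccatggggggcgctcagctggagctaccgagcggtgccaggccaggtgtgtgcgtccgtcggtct
ASNS, chr7:97872359-97872658, minus strand: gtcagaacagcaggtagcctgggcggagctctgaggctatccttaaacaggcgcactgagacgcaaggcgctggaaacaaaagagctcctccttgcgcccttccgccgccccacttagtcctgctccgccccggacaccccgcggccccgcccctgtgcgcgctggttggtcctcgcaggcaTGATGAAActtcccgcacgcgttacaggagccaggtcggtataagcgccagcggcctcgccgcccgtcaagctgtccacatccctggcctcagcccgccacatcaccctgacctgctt
MTHFD1L, chr6:150866236-150866535, plus strand: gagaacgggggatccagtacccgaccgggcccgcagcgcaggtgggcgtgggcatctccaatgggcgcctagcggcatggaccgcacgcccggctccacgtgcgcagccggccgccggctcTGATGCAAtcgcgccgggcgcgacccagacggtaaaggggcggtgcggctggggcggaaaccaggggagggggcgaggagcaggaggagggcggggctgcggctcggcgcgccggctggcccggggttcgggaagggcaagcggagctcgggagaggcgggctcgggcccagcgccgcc

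CHAC1 had 25.9 and 23.5 FPKM in DSM OE, 19.3 and 13.9 FPKM in WT OE, 3.84 and 3.55 FPKM in KD, and 9.52 and 13.1 FPKM in control (1.08, SE 0.20, adjusted p = 0.0292). MTHFD1L, a mitochondrial folate enzyme, had 19.9 and 15.8 FPKM in DSM OE, 15.3 and 13.1 FPKM in WT OE, 13.9 and 11.9 FPKM in KD, and 10.2 and 9.94 FPKM in control (0.76, SE 0.15, adjusted p = 0.0329). Both lost the call without any DSM OE, KD or control library (highest adjusted p 0.109 and 0.129).

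Among the other large rises, some set DSM OE above all lines and some set control below all lines. CTSA, a lysosomal carboxypeptidase on chromosome 20 (45891335 to 45898820 in GRCh38.p14), had 20.7 and 19.4 FPKM in DSM OE, 24.7 and 16.9 FPKM in WT OE, 22.1 and 17.6 FPKM in KD, and 0.351 and 0.360 FPKM in control (3.95, SE 0.20, adjusted p = 0.00121). The 3 other lines overlapped for CTSA and only control stood apart, and the same held for MRPS6, a protein of the mitochondrial ribosome, with 7.22 and 6.83 FPKM in DSM OE against 0.436 and 0.399 FPKM in control (2.50, SE 0.14). AP3M1, a subunit of a vesicle adaptor, was alike in this (6.26 and 7.85 FPKM in DSM OE, 1.01 and 0.218 FPKM in control). By contrast G0S2, an inhibitor of triglyceride breakdown, was highest in DSM OE, with 145 and 162 FPKM in DSM OE, 95.1 and 77.0 FPKM in WT OE, 83.4 and 77.8 FPKM in KD, and 26.7 and 27.2 FPKM in control (2.46, SE 0.13, adjusted p = 0.00121). TNFSF15, a ligand of the TNF family, was highest in DSM OE too, with 55.6 and 50.8 FPKM in DSM OE, 29.6 and 31.2 FPKM in WT OE, 34.0 and 24.5 FPKM in KD, and 7.70 and 8.08 FPKM in control (2.61, SE 0.16, adjusted p = 0.00148). RAN, the GTPase of nuclear transport, had 55.8 and 43.8 FPKM in DSM OE against 3.29 and 4.79 FPKM in control (3.34, SE 0.69, adjusted p = 0.0371), but its WT OE duplicates read 60.6 and 11.8 FPKM. SPANXD, a testis antigen gene on chromosome X with near-identical family members whose reads may be shared, had 45.8 and 29.5 FPKM in DSM OE against 8.05 and 7.68 FPKM in control (2.09, SE 0.24). The RAN call was lost without any DSM OE, KD or control library (highest adjusted p 0.138) and that of SPANXD without control replicate 2 (0.0528). The calls of CTSA, MRPS6, AP3M1, G0S2 and TNFSF15 held with each of the 8 libraries left out.

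The largest falls held genes lost in DSM OE alone and genes seen in control alone. GNAS, the stimulatory G protein alpha subunit on chromosome 20 (58839748 to 58911192), had 0.403 and 0.388 FPKM in DSM OE, 27.5 and 56.3 FPKM in WT OE, 5.6 and 24.1 FPKM in KD, and 29.9 and 29.1 FPKM in control (-4.45, SE 0.64, adjusted p = 0.015). ARRDC2, an arrestin-domain protein on chromosome 19 (18001124 to 18014102), had 0.0805 and 0.0790 FPKM in DSM OE, against 13.4 and 12.7 FPKM in WT OE, 14.5 and 15.2 FPKM in KD, and 13.6 and 13 FPKM in control (-3.73, SE 0.09, adjusted p = 0.000127). In both genes the DSM OE libraries lay far below all 6 others, and for ARRDC2 those 6 spanned only 12.7 to 15.2 FPKM. RHOD, a small GTPase of endosome traffic, was listed at 0 in both DSM OE libraries, with 1.26 and 1.16 FPKM in WT OE, 1.40 and 0.833 FPKM in KD, and 5.50 and 5.23 FPKM in control (adjusted p = 0.00127). ARPC1B, a subunit of the Arp2/3 complex that nucleates actin, had 0.517 and 0.932 FPKM in DSM OE, 10.5 and 6.23 FPKM in WT OE, 40.0 and 5.26 FPKM in KD, and 22.2 and 34.3 FPKM in control (-4.06, SE 0.85, adjusted p = 0.0374). GALNT1, which starts O-glycosylation, was low in both DSM OE and KD, with 0.231 and 2.59 FPKM in DSM OE, 1.31 and 0.953 FPKM in KD, 17.5 and 22.8 FPKM in WT OE, and 15.6 and 12.5 FPKM in control (-2.83, SE 0.49, adjusted p = 0.0232). The GNAS call was lost without any DSM OE or control library (highest adjusted p 0.076). That of ARPC1B was lost without any DSM OE, WT OE or control library (0.154) and that of GALNT1 without either control library (0.099). ARRDC2 and RHOD kept theirs with each library left out.

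Other falls were of genes high in control only, several of them secreted or epithelial. The trefoil factors, small secreted proteins of mucous epithelia and, for TFF1 and TFF3, of luminal breast cells, were listed at 0 in both libraries of DSM OE, WT OE and KD. In control TFF3 had 20.6 and 20.3 FPKM, TFF2 8.29 and 9.40 FPKM and TFF1 7.03 and 7.16 FPKM. The limma adjusted p for DSM OE was 0.000102, 0.000264 and 0.000264. These genes passed the filter through the control libraries alone, so they could be called only as lower. The same limit holds for TFF3 and TFF1 in the luminal counts and for TFF2 in the colon count below. SPDEF, a transcription factor of luminal and secretory cells, had 23.9 and 23.6 FPKM in DSM OE, 18.4 and 14.1 FPKM in WT OE, 18.4 and 17.2 FPKM in KD, and 55.8 and 64.4 FPKM in control (-1.30, SE 0.15, adjusted p = 0.00855). Of the 11 tested genes of the luminal list, 5 were lower in DSM OE (TFF3, TFF1, AGR2 and SPDEF among them) and 1 was higher (XBP1). The shares over all genes were 5.5% lower and 5.51% higher. The median of the list was -0.78 against 0.02 over all genes. The summed FPKM of the 15 listed luminal genes was 199.6 and 199.2 in DSM OE and 246 and 279 in control, and 6 of the 15 reached an FPKM of 1 in each DSM OE library against 11 in each control library. Their part in the other differences was not tested. Of the other cell types listed, colon had 1 tested gene (TFF2, lower), prostate had 2 (SLC45A3, lower) and stromal, endothelial and blood cells had 4, none of them called, with 2 higher at an unadjusted p under 0.05 in limma. ADIRF, a factor of fat cell formation, had 2.19 and 0.875 FPKM in DSM OE, 3.09 and 4.03 FPKM in WT OE, 5.10 and 5.23 FPKM in KD, and 19.6 and 19.1 FPKM in control (-3.05, SE 0.26, adjusted p = 0.00389). MISP, a regulator of spindle position, had 1.13 and 1.12 FPKM in DSM OE against 11.1 and 13.7 FPKM in control (-2.65, SE 0.18, adjusted p = 0.0018). The testis antigen MAGEA3, which has near-identical family members, had 5.37 and 0.594 FPKM in DSM OE against 20.6 and 23.3 FPKM in control (-2.85, SE 0.59, adjusted p = 0.0377). The MAGEA3 call was lost without any WT OE, KD or control library (highest adjusted p 0.148), and the 5 lower luminal genes became 3 without either control library or without DSM OE replicate 2.

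The list of DNA replication held 12 lower genes and no higher gene in DSM OE. Of 45 tested members none was higher (1 at an unadjusted p under 0.05 in limma) and the 12 were lower than in control (21 unadjusted), against 5.5% lower over all genes, with a median log2 fold change of -0.43 against 0.02 over all genes, and 40 of the 45 had a fold change below 0. PCNA, the sliding clamp of DNA polymerases on chromosome 20 (5114953 to 5126622), had 32.4 and 27.3 FPKM in DSM OE, 45.4 and 45.3 FPKM in WT OE, 110 and 112 FPKM in KD, and 106 and 104 FPKM in control (-1.78, SE 0.10, adjusted p = 0.00127). E2F2, a transcription factor of S phase entry, was almost absent in DSM OE, with 0.00798 and 0.00630 FPKM in DSM OE, 0.855 and 0.962 FPKM in WT OE, 1.56 and 1.43 FPKM in KD, and 1.38 and 1.25 FPKM in control (-1.20, SE 0.10, adjusted p = 0.00402). CDC6, which loads the replicative helicase, had 8.38 and 7.87 FPKM in DSM OE, 13.8 and 14.3 FPKM in WT OE, 13.6 and 14.1 FPKM in KD, and 18.4 and 15.6 FPKM in control (-0.98, SE 0.11, adjusted p = 0.00849). In all 3 genes both DSM OE libraries were below the other 6. E2F1, a factor of the same family as E2F2, had 16.4 and 19.1 FPKM in DSM OE against 35.9 and 35.5 FPKM in control (-0.97, SE 0.15). RRM2, a subunit of ribonucleotide reductase, had 13 and 10.7 FPKM against 23.8 and 24.3 FPKM (-0.97, SE 0.15). CCNE2, FEN1, GINS1, ORC1, MCM3, MCM10 and GMNN made up the 12. FAM111B, a protease linked to replication that lies outside the list, had 0.601 and 0.878 FPKM in DSM OE, 2.09 and 2.04 FPKM in WT OE, 5.79 and 5.84 FPKM in KD, and 4.79 and 5.20 FPKM in control (-1.79, SE 0.12, adjusted p = 0.0018).

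Of the mitotic genes, none of 49 tested members was higher in DSM OE (none at an unadjusted p under 0.05 in limma either). Lower were 5 (18 unadjusted), against 5.5% lower and 5.51% higher over all genes. The median was -0.38, and 39 members were below 0. ANLN, which organises the cleavage furrow, had 20.5 and 16.5 FPKM in DSM OE, 35.9 and 38.6 FPKM in WT OE, 29.6 and 30.0 FPKM in KD, and 38.4 and 38.1 FPKM in control (-1.02, SE 0.12, adjusted p = 0.0095). PLK1, a mitotic kinase, had 15.2 and 13.7 FPKM in DSM OE against 25.3 and 28.3 FPKM in control (-0.85, SE 0.13, adjusted p = 0.0169). CENPF, NUF2 and CDCA8 were the other 3 lower members, whereas MKI67, the proliferation marker, had 16.7 and 18.1 FPKM in DSM OE against 18.8 and 22.3 FPKM in control and gave no call (adjusted p = 0.546). Against KD, 17 replication genes were lower in DSM OE and none was higher (2 at an unadjusted p under 0.05 in limma), while of the mitotic genes 2 were higher and 2 lower. The shares over all genes against KD were 8.83% lower and 8.04% higher. The 12 lower replication genes became 4 without control replicate 1, 5 without control replicate 2, 5 without DSM OE replicate 1, 3 without DSM OE replicate 2 and 8 without either KD library. The 5 lower mitotic genes became 0 without either control library (9 without control replicate 1 and 16 without control replicate 2 at an unadjusted p under 0.05 in limma), 2 without DSM OE replicate 1, and 3 without DSM OE replicate 2 or either KD library. PCNA, E2F2, CDC6 and FAM111B kept their calls with each library left out. E2F1 and PLK1 lost theirs without any DSM OE or control library (highest adjusted p 0.0788 and 0.0864), RRM2 without DSM OE replicate 2 or either control library (0.0902), and ANLN without either control library (0.053).

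The mitochondrial genome encodes core subunits of the respiratory chain. Of its 13 tested genes 6 were lower in DSM OE than in control (MT-ND4, MT-CO1, MT-ND1, MT-ND4L, MT-CO2 and MT-ND5), against 5.5% lower over all genes. None was higher (none at an unadjusted p under 0.05 in limma either), against 5.51% over all genes, and 7 gave no call. A fold change below 0 was seen in 12, and the median was -0.41. MT-ND4, a subunit of complex I, had 186 and 186 FPKM in DSM OE, 353 and 333 FPKM in WT OE, 362 and 373 FPKM in KD, and 364 and 362 FPKM in control (-0.96, SE 0.07, adjusted p = 0.00295). MT-CO1, the catalytic subunit of complex IV, had 578 and 494 FPKM in DSM OE, 933 and 830 FPKM in WT OE, 1187 and 1243 FPKM in KD, and 970 and 956 FPKM in control (-0.85, SE 0.11, adjusted p = 0.0116). For both genes the DSM OE libraries were below the other 6 libraries without overlap. MT-CYB, a subunit of complex III, had 299 and 260 FPKM in DSM OE against 335 and 314 FPKM in control and gave no call (adjusted p = 0.246). Against WT OE 5 of the 13 were lower in DSM OE (0.946% over all genes), with a median of -0.55. Against KD 8 were lower (8.83% over all genes), with a median of -0.65. None was higher in either comparison, also at an unadjusted p under 0.05 in limma.

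Of 75 tested nuclear genes of the respiratory chain 2 were higher and 2 lower, against 5.51% and 5.5% over all genes, with a median of 0.00. UQCRC1, a core subunit of complex III, had 111 and 105 FPKM in DSM OE, 91.1 and 89.4 FPKM in WT OE, 49.1 and 49.6 FPKM in KD, and 37.0 and 41.5 FPKM in control (1.44, SE 0.09, adjusted p = 0.00152). ATP5MC1, of the ATP synthase ring, had 6.02 and 5.97 FPKM in DSM OE against 12.2 and 12.4 FPKM in control (-0.93, SE 0.14, adjusted p = 0.0174). The other calls were NDUFB9, higher by 0.56, and COX8A, lower by 0.61 on the log2 scale. The 6 lower mitochondrial transcripts became 1 without control replicate 1, 2 without control replicate 2, 3 without DSM OE replicate 2 and 4 without either KD library. Of the genes given here MT-ND4 and UQCRC1 kept their calls throughout. MT-CO1 lost its call without either control library (highest adjusted p 0.0623) and ATP5MC1 without any DSM OE or control library (0.0845).

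Sterol synthesis, the pathway on which the study centres, held lower genes in DSM OE than in control. Of 21 tested genes 8 were lower (among them HSD17B7, IDI1, LSS, DHCR7, CYP51A1, FDFT1 and FDPS), against 5.5% lower over all genes. None was higher (none at an unadjusted p under 0.05 in limma either), against 5.51% over all genes. A fold change below 0 was seen in 20, and the median was -0.54. HSD17B7, a ketosteroid reductase of the late pathway, had 2.99 and 2.07 FPKM in DSM OE, 5.81 and 5.95 FPKM in WT OE, 2.85 and 3.10 FPKM in KD, and 6.28 and 5.83 FPKM in control (-1.01, SE 0.15, adjusted p = 0.0159). IDI1, which isomerises isopentenyl diphosphate, had 12.5 and 11.7 FPKM in DSM OE, 19.5 and 25 FPKM in WT OE, 10.2 and 10.3 FPKM in KD, and 27.0 and 22.3 FPKM in control (-0.96, SE 0.15, adjusted p = 0.0191). In both genes DSM OE lay near KD, and WT OE lay near control. LSS, which closes the sterol rings, had 13 and 16.3 FPKM in DSM OE against 26.3 and 29.9 FPKM in control (-0.90, SE 0.14). DHCR7, the last step to cholesterol, had 26.6 and 33.8 FPKM against 55.8 and 56.4 FPKM (-0.88, SE 0.16). HMGCS1, an early enzyme of the pathway, had 16.1 and 17.7 FPKM in DSM OE against 33.1 and 28.5 FPKM in control and just missed the threshold (adjusted p = 0.0514). Against WT OE 2 of the 21 were lower in DSM OE (HSD17B7 among them, lost without either control library, highest adjusted p 0.152) and the median was -0.63. Against KD 5 were higher and the median was 0.30. The shares over all genes were 0.946% lower than in WT OE and 8.04% higher than in KD. At an unadjusted p under 0.05 in limma 1 was higher and 14 lower than in WT OE, and 8 were higher and 2 lower than in KD. The letters TCACNCCAC, 1 spelling of a sterol regulatory element, were in none of the 16 promoters of this list with an entry. They were in 1.03% of the promoters of genes tested. At that rate no match was likely in 16 promoters, so the count cannot show whether the list lacks such elements. Other spellings were not read.

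Fatty acid synthesis gave 4 lower genes and 1 higher of 22 tested, against 5.5% lower and 5.51% higher over all genes, with a median of -0.33. SCD, the stearoyl-CoA desaturase, had 267 and 261 FPKM in DSM OE against 372 and 353 FPKM in control (-0.45, SE 0.08). SLC25A1, the exporter of mitochondrial citrate, had 54.7 and 57.3 FPKM against 88.8 and 86.8 FPKM (-0.64, SE 0.10). The desaturase FADS1 and the elongase ELOVL5 were the other 2, lower by 0.59 and 0.54 on the log2 scale. ME1, which makes NADPH from malate, was the 1 higher member, with 10.6 and 11.4 FPKM in DSM OE against 5.48 and 4.41 FPKM in control (1.02, SE 0.14). FASN, the synthase itself, had 99.1 and 101 FPKM in DSM OE and 176 and 147 FPKM in control, but 12.5 and 118 FPKM in WT OE and 14.4 and 113 FPKM in KD, and gave no call (adjusted p = 0.764). The regulators SREBF1 (15.8 and 19.0 FPKM in DSM OE, 18.5 and 22.9 FPKM in control) and SREBF2 (32.0 and 21.9 FPKM, and 21.2 and 34.6 FPKM) gave none either. Of 15 tested genes of SREBP processing and sterol uptake 2 were higher and none was lower (1 at an unadjusted p under 0.05 in limma). They were MBTPS1, the protease that cuts SREBP, with 18.1 and 18.4 FPKM in DSM OE against 8.50 and 10.8 FPKM in control (0.87, SE 0.13), and SCAP, its escort, with 18.9 and 19.5 FPKM against 11.3 and 13.3 FPKM (0.61, SE 0.12). Of 18 lipid droplet genes 2 were higher (G0S2 and DGAT2) and 2 lower (PLIN2 and SOAT1). PLIN2, the droplet coat protein, had 4.85 and 3.87 FPKM in DSM OE against 8.82 and 8.94 FPKM in control (-0.89, SE 0.12). Of 25 genes of fatty acid oxidation ACADVL was higher (0.77) and CPT1A lower (-0.45), and of 9 LXR targets OSBPL5 was higher (0.79) and LPCAT3 lower (-0.74). The 8 lower sterol genes became 0 without control replicate 1 (12 at an unadjusted p under 0.05 in limma), 1 without control replicate 2 and 2 on removing either DSM OE library. The 4 lower fatty acid genes became 0 without any DSM OE or control library (5 or 6 unadjusted) and 1 without either KD library. HSD17B7 and PLIN2 lost their calls without either control library (highest adjusted p 0.0755 and 0.0683). IDI1 lost its call without any DSM OE or control library (0.0838) and LSS without DSM OE replicate 1 or either control library (0.0898). ME1 was lost on removing either DSM OE library or control replicate 2 (0.0683) and MBTPS1 on removing either DSM OE library or control replicate 1 (0.0686). DHCR7, SCD, SCAP and SLC25A1 were lost without any DSM OE or control library (0.114, 0.112, 0.12 and 0.0785).

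**Figure D3:**
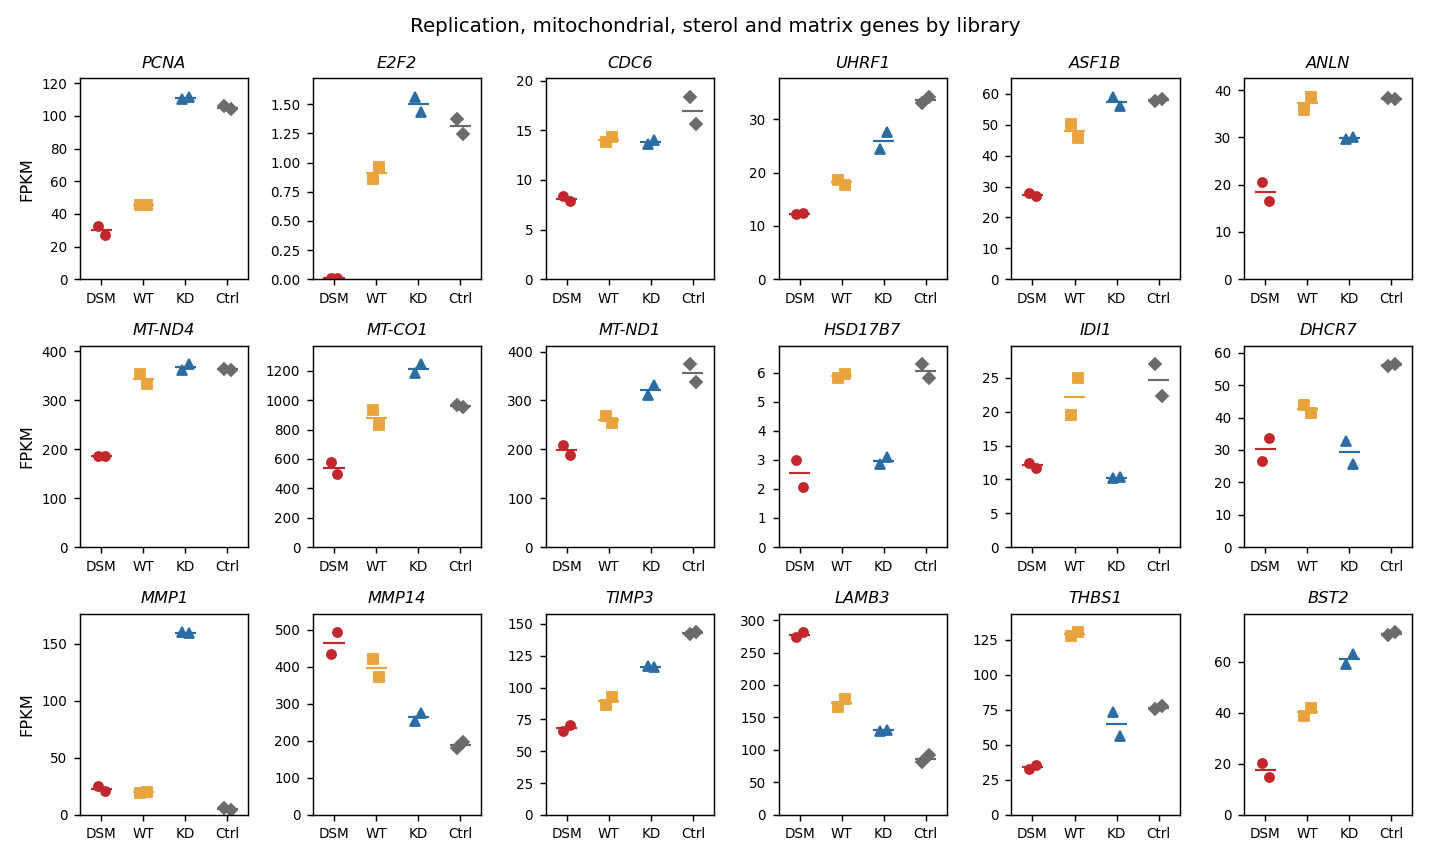
FPKM (y axis, from 0) of 18 genes of replication and chromatin, the mitochondrial genome, sterol synthesis and the matrix in both libraries of DSM OE, WT OE, KD and control, with a bar at the mean of each pair. The panels in which DSM OE is lowest without overlap include PCNA, E2F2, CDC6, UHRF1, ASF1B, ANLN, MT-ND4, MT-CO1, TIMP3, THBS1 and BST2. In IDI1 DSM OE (12.5 and 11.7 FPKM) lies near KD (10.2 and 10.3 FPKM), and in MMP1 KD is the highest line at 160 and 159 FPKM.

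Of 39 tested genes of glycolysis and hypoxia 10 were lower and 4 higher, against 5.5% and 5.51% over all genes, with a median of -0.11. ALDOC, an aldolase isoform, was listed at 0 in both DSM OE libraries, with 0.0342 and 0.0261 FPKM in WT OE, 0.0239 and 0 FPKM in KD, and 3.08 and 3.92 FPKM in control (limma adjusted p = 0.00127). ALDOC passed the filter through the control libraries alone, so it could be called only as lower. ALDOA, the main aldolase, had 63.2 and 56.1 FPKM in DSM OE, 99.7 and 100 FPKM in WT OE, 78.2 and 123 FPKM in KD, and 136 and 142 FPKM in control (-1.21, SE 0.21, adjusted p = 0.0235). SLC2A1, the glucose transporter, had 59.4 and 57.6 FPKM in DSM OE against 112 and 120 FPKM in control (-0.97, SE 0.11, adjusted p = 0.00861). ADM, a vasodilator peptide induced by hypoxia, had 4.49 and 3.22 FPKM in DSM OE, 9.37 and 10.4 FPKM in WT OE, 12.6 and 13.5 FPKM in KD, and 9.08 and 9.22 FPKM in control (-1.08, SE 0.15, adjusted p = 0.0133). For ALDOA, SLC2A1 and ADM both DSM OE libraries were the lowest of the 8. PKM, PFKM, PGAM1, GAPDH, TPI1 and the kinase PDK3 were also lower, and P4HA2, a collagen prolyl hydroxylase, MXI1, CA12 and BNIP3L were higher. The 10 became 2 without control replicate 2, 3 without control replicate 1, 5 without either DSM OE or either KD library and 6 without either WT OE library. ALDOC kept its call throughout, while ALDOA lost its call without any DSM OE or control library (highest adjusted p 0.109), ADM without either control library (0.0713) and SLC2A1 without control replicate 2 (0.0514).

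Of 29 genes of the NRF2 response and the pentose phosphate route 4 were higher and 6 lower, with a median of -0.11. The shares over all genes were 5.51% higher and 5.5% lower. AKR1C3, an aldo-keto reductase, had 8.06 and 7.32 FPKM in DSM OE, 2.69 and 3.16 FPKM in WT OE, 3.42 and 4.11 FPKM in KD, and 2.25 and 2.25 FPKM in control (1.42, SE 0.13, adjusted p = 0.00454). SLC7A11, ME1 and HMOX1 were the other 3 higher genes. KEAP1, which marks NRF2 for breakdown, had 9.11 and 15.4 FPKM in DSM OE against 31.3 and 28.8 FPKM in control (-1.27, SE 0.29, adjusted p = 0.0478), and SRXN1, FTH1, ABCC1, ABCC3 and RPIA were lower too. AKR1C3 and SRXN1 kept their calls with each library left out, and KEAP1 lost its call without any of the 8 (highest adjusted p 0.159).

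The list of metalloproteinases and the urokinase system, proteases that cut the extracellular matrix, held 7 higher and 3 lower genes of 23 tested. The shares over all genes were 5.51% and 5.5%, and the median of the list was 0.30. MMP14, a membrane-bound collagenase, had 435 and 493 FPKM in DSM OE, 420 and 372 FPKM in WT OE, 252 and 274 FPKM in KD, and 181 and 198 FPKM in control (1.29, SE 0.11, adjusted p = 0.00409). MMP1, the interstitial collagenase, had 25 and 20.8 FPKM in DSM OE, 18.8 and 20.4 FPKM in WT OE, 160 and 159 FPKM in KD, and 5.59 and 4.11 FPKM in control (2.03, SE 0.16, adjusted p = 0.00295). In MMP14 the DSM OE libraries were the highest, whereas in MMP1 they lay between WT OE and KD. ADAM8 (1.19), SERPINE2 (0.97), PLAUR (0.84) and PLAU (0.68) were among the other higher genes, the last pair being the urokinase receptor and urokinase. TIMP3, an inhibitor of metalloproteinases, had 66.2 and 70.7 FPKM in DSM OE, 86.6 and 92.9 FPKM in WT OE, 117 and 116 FPKM in KD, and 142 and 143 FPKM in control (-1.05, SE 0.08, adjusted p = 0.00313). PLAT (-1.04), the tissue plasminogen activator, and ADAM15 (-0.67) were the other lower genes. The 7 higher genes became 4 without either control library. MMP1, MMP14, ADAM8, SERPINE2, TIMP3 and PLAT kept their calls throughout. PLAUR lost its call without any DSM OE, KD or control library (highest adjusted p 0.162) and PLAU without any of the 8 (0.148).

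Of 37 tested genes of matrix and collagens 4 were higher and 5 lower, against 5.51% and 5.5% over all genes, with a median of 0.04. LAMB3, a chain of the basement membrane protein laminin-332, had 274 and 281 FPKM in DSM OE, 165 and 179 FPKM in WT OE, 129 and 131 FPKM in KD, and 81.5 and 91.5 FPKM in control (1.67, SE 0.09, adjusted p = 0.00127). THBS1, which activates latent TGF-beta, had 32.7 and 35.7 FPKM in DSM OE, 128 and 131 FPKM in WT OE, 73.8 and 56.0 FPKM in KD, and 75.4 and 77.9 FPKM in control (-1.14, SE 0.14, adjusted p = 0.0105). LAMB3 was highest and THBS1 lowest in DSM OE of the 4 lines, without overlap. COL3A1, a fibrillar collagen, had 0.0180 and 0.00306 FPKM in DSM OE, 0.0105 and 0.00866 FPKM in WT OE, 2.06 and 2.42 FPKM in KD, and 2.54 and 2.01 FPKM in control (-1.69, SE 0.13, adjusted p = 0.00295), so it was nearly absent in both overexpression lines. LAMB2, CCN2 and LOX were higher too, and EFEMP1, COL4A2 and COL6A1 lower. THBS1 lost its call without either control library (highest adjusted p 0.0594) and LAMB2 without any DSM OE, KD or control library (0.153).

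Of 40 tested targets of TGF-beta and YAP 5 were higher and 7 lower, against 5.51% and 5.5% over all genes, with a median of -0.04. BMP2, a ligand of the family, had 9.99 and 11.4 FPKM in DSM OE, 3.88 and 3.01 FPKM in WT OE, 11.1 and 10.3 FPKM in KD, and 2.42 and 2.15 FPKM in control (1.83, SE 0.14, adjusted p = 0.00295). INHBB, an activin subunit, had 5.48 and 3.93 FPKM in DSM OE, 13.6 and 11.6 FPKM in WT OE, 1.57 and 1.32 FPKM in KD, and 15.9 and 15.8 FPKM in control (-1.58, SE 0.16, adjusted p = 0.00692). For both genes DSM OE was nearer to KD than to control, and WT OE was nearer to control. ANKRD1, a target of YAP, had 41.3 and 35.4 FPKM in DSM OE against 109 and 98.7 FPKM in control (-1.41, SE 0.11), while CCN2, another target, had 230 and 245 FPKM against 128 and 133 FPKM (0.86, SE 0.08). LTBP1 (1.34), TGFBR2 (1.0) and SMAD7 (0.96) were higher, and F3, FST, TGFB2, TGFBR1 and INHBA lower. Of 14 mesenchymal markers ZEB1, a repressor of epithelial genes, and NT5E were higher (0.90 and 0.73) and S100A4, CAV1 and TGFB2 lower (-0.85, -0.76 and -0.76). Of 19 epithelial markers CLDN7, CLDN1 and DSG2 were higher and CLDN4 and SPINT2 lower, so both marker lists held calls each way. Of 30 genes of integrins and focal adhesion FERMT1 (0.95), ITGA1 (0.91) and ITGA5 (0.70) were higher and none was lower (2 at an unadjusted p under 0.05 in limma). Of these, BMP2, INHBB, ANKRD1, CCN2, TGFBR2, F3 and FST kept their calls with each library left out, and ZEB1 lost its call without DSM OE replicate 2 or control replicate 2 (highest adjusted p 0.0528). LTBP1, ITGA1 and CLDN4 lost theirs without any DSM OE or control library (0.0992, 0.0898 and 0.0784). FERMT1, NT5E, DSG2 and TGFB2 lost theirs without any DSM OE, KD or control library (0.132, 0.113, 0.121 and 0.104), and S100A4 without DSM OE replicate 2 or either control library (0.0969). CAV1 was lost without control replicate 1 (0.0505), CLDN1 without either DSM OE library (0.0528) and ITGA5 without any of the 8 (0.17).

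Of 33 tested NF-kB targets and cytokines 6 were higher (TNFSF15, IL1B, CXCL8, IL1A, PTGS2 and RELB) and 1 lower (CCL26), with a median of 0.08. The shares over all genes were 5.51% higher and 5.5% lower. IL1B, an inflammatory cytokine, had 5.29 and 4.82 FPKM in DSM OE, 1.06 and 1.14 FPKM in WT OE, 75.9 and 78.3 FPKM in KD, and 0.395 and 0.276 FPKM in control (2.18, SE 0.11, adjusted p = 0.00117). CXCL8, which draws neutrophils, had 7.79 and 8.26 FPKM in DSM OE, 13.2 and 17.1 FPKM in WT OE, 156 and 154 FPKM in KD, and 2.81 and 2.1 FPKM in control (1.39, SE 0.16, adjusted p = 0.00854). IL1A was listed at 0 in control, with 1.89 and 1.37 FPKM in DSM OE (adjusted p = 0.0053). The levels in DSM OE were thus far below those in KD for IL1B and CXCL8. Of the 33 genes, 22 were lower in DSM OE than in KD and 1 was higher, against 8.83% and 8.04% over all genes. Of 30 interferon-stimulated genes 2 were higher (ISG20 and IFI6) and 1 lower, with a median of 0.09. The lower gene was BST2, or tetherin, which holds budding viruses at the cell surface. BST2 had 20.3 and 14.9 FPKM in DSM OE, 38.8 and 41.9 FPKM in WT OE, 59.1 and 63.0 FPKM in KD, and 70.5 and 71.6 FPKM in control (-1.97, SE 0.15, adjusted p = 0.00295). Of 17 genes of MHC class I presentation HLA-E was higher (0.40) and PSMB9 lower (-0.64). The 6 higher NF-kB genes became 4 on removing either DSM OE library or control replicate 1, PTGS2 losing its call without every library but control replicate 2 (highest adjusted p 0.142) and RELB without any DSM OE or control library (0.0982). IL1B, CXCL8, IL1A and BST2 kept theirs throughout, whereas ISG20 lost its call without any DSM OE or control library (0.0887) and IFI6 and HLA-E without any of the 8 (0.159 and 0.161).

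Of 43 genes of MAPK feedback and AP-1 5 were higher and 3 lower, against 5.51% and 5.5% over all genes. DUSP5, a phosphatase of nuclear ERK, had 106 and 119 FPKM in DSM OE, 49.3 and 49.6 FPKM in WT OE, 36.5 and 37.4 FPKM in KD, and 37.4 and 39.2 FPKM in control (1.53, SE 0.09, adjusted p = 0.00132). RPS6KA2, a kinase below ERK, was highest in DSM OE as well, with 7.08 and 6.82 FPKM in DSM OE against 2.10 and 2.17 FPKM in control (1.34, SE 0.12, adjusted p = 0.00445). HBEGF, IER2 and PHLDA1 were higher and TGFA (-1.09), DUSP1 (-0.83) and DUSP14 lower. Of 34 genes of the BCL2 family and death receptors, with which DAXX was first linked, 3 were higher and 1 lower. MCL1, a survival protein, had 153 and 149 FPKM in DSM OE, 98.7 and 98.8 FPKM in WT OE, 128 and 128 FPKM in KD, and 82.0 and 75.5 FPKM in control (0.93, SE 0.08, adjusted p = 0.00402). MAP3K5, a stress kinase that binds DAXX, was also higher (0.91) and the decoy receptor TNFRSF10D was lower (-0.67). Of 27 targets of p53, a factor that carries a mutation in this line, SESN2 and GADD45B were higher and SFN lower. Of 44 genes of heterotrimeric G proteins and cAMP 3 were higher (RGS4, PDE4D and PRKACB) and 4 lower (GNAS, ARRDC2, PRKAR2A and PRKAR1B). DUSP5, RPS6KA2 and MCL1 kept their calls throughout. MAP3K5 lost its call without any DSM OE, KD or control library (highest adjusted p 0.138), and TGFA, DUSP1 and TNFRSF10D without any DSM OE or control library (0.0902, 0.0898 and 0.0872).

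Of 24 tested H3.3 chaperones and DAXX partners none was higher (4 at an unadjusted p under 0.05 in limma) and 2 were lower (4 unadjusted), against 5.51% higher and 5.5% lower over all genes, with a median of -0.07 against 0.02. ASF1B, which hands new histones to other chaperones in S phase, had 27.8 and 26.9 FPKM in DSM OE, 50.2 and 45.6 FPKM in WT OE, 59.1 and 56.0 FPKM in KD, and 57.9 and 58.4 FPKM in control (-1.06, SE 0.09, adjusted p = 0.00382). HIRA, the chaperone that places H3.3 in genes, had 7.77 and 7.74 FPKM in DSM OE against 12.7 and 11.8 FPKM in control (-0.59, SE 0.13, adjusted p = 0.0448). ATRX, with which DAXX places H3.3, had 2.49 and 2.88 FPKM in DSM OE against 2.48 and 1.92 FPKM in control and gave no call (adjusted p = 0.428), nor did H3-3A (31.8 and 33.7 FPKM against 36.2 and 32.7 FPKM). Of 32 genes of SUMO conjugation and PML bodies none was higher (3 at an unadjusted p under 0.05 in limma) and RNF4 alone, a ligase that reads SUMO chains, was lower (6.93 and 6.57 FPKM in DSM OE against 10.5 and 9.67 FPKM in control, -0.52, SE 0.10, adjusted p = 0.0333). PML had 6.6 and 6.70 FPKM in DSM OE against 6.13 and 5.28 FPKM in control, and SUMO2 62.1 and 53.3 FPKM against 30.8 and 29.0 FPKM, neither with a call (adjusted p = 0.49 and 0.138). Of 20 genes of heterochromatin and DNA methylation UHRF1, which brings the maintenance DNA methyltransferase to replicated DNA, was lower and none was higher (3 at an unadjusted p under 0.05 in limma). UHRF1 had 12.2 and 12.4 FPKM in DSM OE, 18.6 and 17.7 FPKM in WT OE, 24.4 and 27.6 FPKM in KD, and 33.1 and 34.2 FPKM in control (-1.38, SE 0.10, adjusted p = 0.00221). Of 12 histone genes 2 were higher, among them the linker histone H1-2 (0.96), and H2BC12 was lower (-0.60), though poly A libraries catch few transcripts of replication histones. ASF1B and UHRF1 kept their calls throughout. HIRA lost its call without any DSM OE, KD or control library (highest adjusted p 0.155) and RNF4 without any of the 8 (0.126).

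Of 42 translation initiation factors 5 were higher and none was lower (1 at an unadjusted p under 0.05 in limma), with a median of 0.14. The shares over all genes were 5.51% higher and 5.5% lower. EIF4A2, an RNA helicase, had 41.0 and 36.6 FPKM in DSM OE, 34.9 and 35.8 FPKM in WT OE, 17.1 and 20.4 FPKM in KD, and 16.4 and 15.2 FPKM in control (1.24, SE 0.12, adjusted p = 0.00577). EIF4EBP1, which holds back cap-dependent translation and is a known ATF4 target, had 102 and 103 FPKM in DSM OE against 50.7 and 54.0 FPKM in control (0.96, SE 0.10, adjusted p = 0.00758), and EIF2S2, EIF3A and EIF3E were higher too. Of 83 cytosolic ribosomal proteins 1 was higher, and of 78 mitochondrial ones 2 were higher and 4 lower. Of 47 genes of nuclear transport 2 were higher (RAN and XPOT, the exporter of tRNA, at 1.05) and 6 lower, with a median of -0.20. NUP210, a membrane nucleoporin, had 0.00868 and 0 FPKM in DSM OE against 3.18 and 3.07 FPKM in control (adjusted p = 0.00117). Of 30 ER chaperones and unfolded protein response genes 3 were higher (ERN1, XBP1 and HERPUD1) and 3 lower (SDF2L1, HYOU1 and HSPA5), with a median of -0.13. The chaperone HSPA5 had 152 and 142 FPKM in DSM OE against 199.6 and 190.4 FPKM in control (-0.41, SE 0.08). Of 38 lysosomal genes CTSA and TFE3 were higher and CTSD lower, and of 34 genes of actin nucleation DIAPH2 was higher and ARPC1B, DIAPH1 and ARPC1A lower. The 5 higher initiation factors became 2 without control replicate 2 or DSM OE replicate 2 and 3 without control replicate 1 or DSM OE replicate 1. EIF4A2, EIF4EBP1 and NUP210 kept their calls throughout. XPOT lost its call without control replicate 2 (highest adjusted p 0.0511) and HSPA5 without any of the 8 (0.127).

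**Figure D4:**
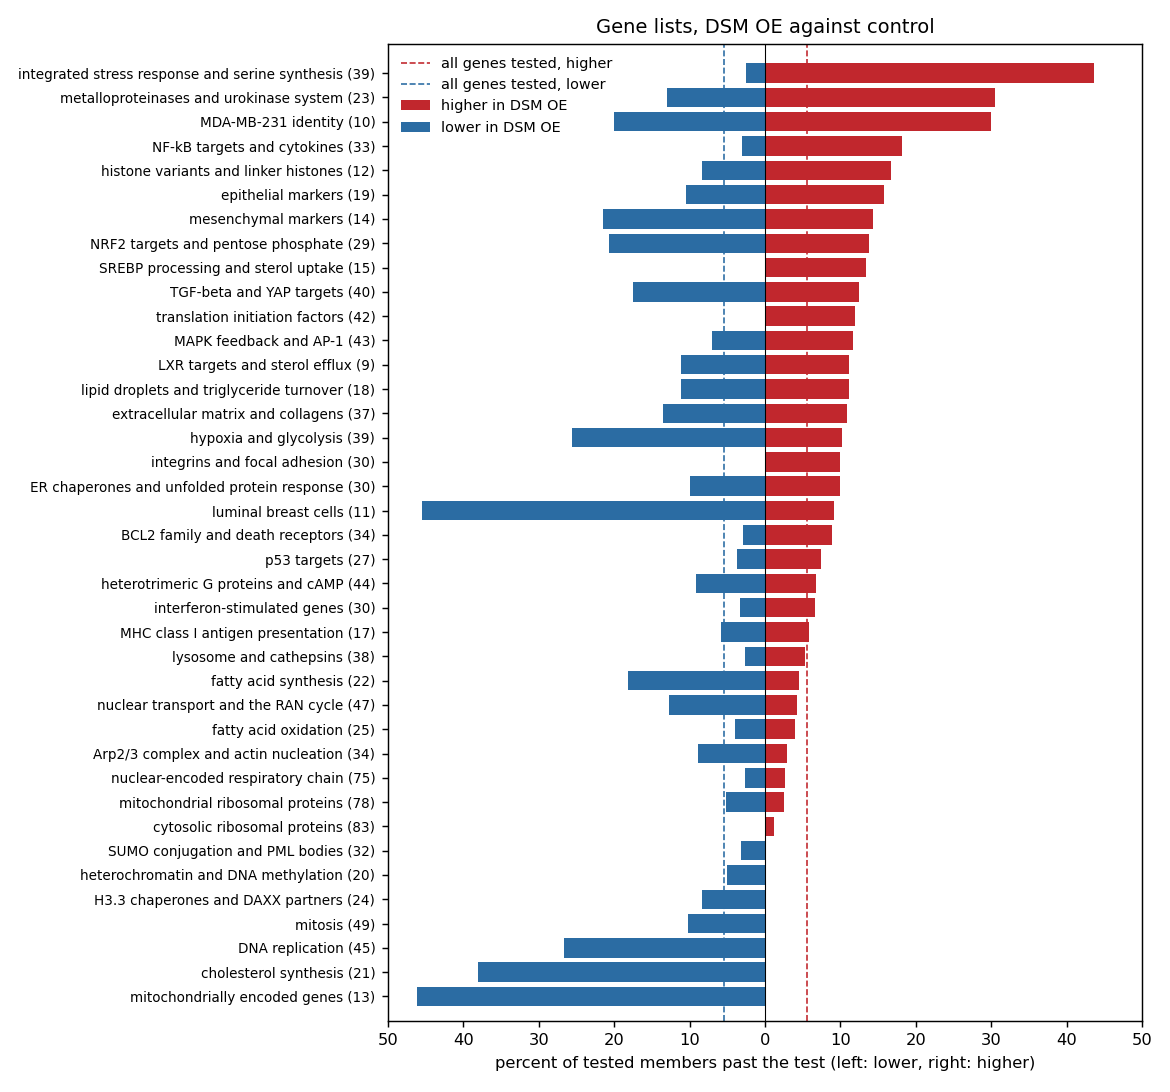
Percent of the tested members of each list (x axis, list size in brackets) that were higher in DSM OE than in control (red, to the right) or lower (blue, to the left), for lists with at least 9 tested genes. The dashed lines give the same shares over all genes tested, 5.51% higher and 5.5% lower, and the stress-response list reaches furthest to the right with 17 of 39, while the mitochondrially encoded genes (6 of 13), the luminal genes (5 of 11) and sterol synthesis (8 of 21) reach furthest to the left.

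WT OE differs from DSM OE by the SUMO-interacting motifs of the introduced DAXX, by the measured level of DAXX and by the history of the line. These cannot be told apart here. DAXX itself had a log2 fold change of -1.43 in DSM OE over WT OE (SE 0.34). Both DSM OE libraries lay below both WT OE libraries, though limma gave no call (adjusted p = 0.122). Set against WT OE, 68 genes were higher in DSM OE (0.65% of those tested) and 99 were lower (0.946%). COPS4, a subunit of the COP9 signalosome, had the largest rise, with 7.77 and 7.24 FPKM in DSM OE against 0.198 and 0.572 FPKM in WT OE (2.63, adjusted p = 0.00849), and control had 6.10 and 5.01 FPKM. GDF15, a stress cytokine, had 17.1 and 19.6 FPKM in DSM OE against 5.56 and 3.90 FPKM in WT OE (1.76, adjusted p = 0.022), and control was near DSM OE with 14.3 and 16.7 FPKM. RPS6KA2 had 7.08 and 6.82 FPKM in DSM OE against 1.29 and 0.944 FPKM in WT OE (1.91, adjusted p = 0.00588). The near-identical SPANXA1 and SPANXA2 were the other 2 of the 5 largest rises, with 143 and 92.2 FPKM in DSM OE against 23.6 and 30.9 FPKM in WT OE for SPANXA1. KISS1, a metastasis suppressor peptide, was among the falls, with 0.116 and 0.103 FPKM in DSM OE against 12 and 10.8 FPKM in WT OE (-3.48, adjusted p = 0.00368), 0.747 and 0.327 FPKM in KD and 4.76 and 3.80 FPKM in control. EIF3CL, a copy of EIF3C whose reads may be shared, had 0.843 and 0.241 FPKM in DSM OE against 33.5 and 44.2 FPKM in WT OE (-4.71, adjusted p = 0.00588), and KD and control were as low as DSM OE. GNAS (-4.86), ARRDC2 (-3.70) and GALNT1 (-3.32) completed the 5 largest falls. With 1 library left out the counts ran from 7 to 46 higher and from 16 to 77 lower. They were 7 and 16 without either KD library, 10 and 22 without either control library. They were 25 and 77 without DSM OE replicate 1, 17 and 48 without DSM OE replicate 2, 46 and 21 without WT OE replicate 1 and 44 and 19 without WT OE replicate 2. COPS4, RPS6KA2, KISS1, EIF3CL and ARRDC2 kept their calls throughout, whereas GDF15 (highest adjusted p 0.0814), GNAS (0.126), GALNT1 (0.147) and SPANXA1 (0.0812) lost theirs without WT OE replicate 2 and without either control library, among others.

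Set against KD, 841 genes were higher in DSM OE (8.04% of those tested) and 924 were lower (8.83%). The largest falls were of inflammatory genes high in KD. C3, the central complement protein, had 0.0251 and 0.0201 FPKM in DSM OE, 55.6 and 58.9 FPKM in KD, and 0.0468 and 0.0217 FPKM in control (-5.83 against KD, adjusted p = 2.46e-05). CXCL1, a chemokine, had 2.96 and 2.27 FPKM in DSM OE, 191 and 199 FPKM in KD, and 1.07 and 1.74 FPKM in control (-5.76 against KD, adjusted p = 0.00011), and CSF3, the granulocyte growth factor, and SAA1, an acute-phase protein, behaved alike (-4.43 and -4.95). In these genes DSM OE was near control and only KD stood apart. RPS28, a ribosomal protein with many processed copies, was the fifth, but its control duplicates read 190 and 15.2 FPKM. SPANXD (4.90), VAT1L, NGFR (3.21), DAXX (3.14) and GDF15 (3.0) were the largest rises over KD. NGFR, the low-affinity nerve growth factor receptor, had 15.3 and 18.7 FPKM in DSM OE, 0.930 and 0.957 FPKM in KD, and 16.4 and 16.3 FPKM in control (adjusted p = 0.000439). VAT1L was listed at 0 in both KD libraries and had 9.46 and 8.73 FPKM in DSM OE. C3, CXCL1, CSF3, SAA1, SPANXD, VAT1L, NGFR, DAXX and GDF15 kept their calls with each library left out. RPS28 lost its call without any DSM OE, WT OE or KD library (highest adjusted p 0.122). The counts fell to 313 higher and 288 lower without KD replicate 1, 377 and 350 without KD replicate 2. They were 367 and 518 without DSM OE replicate 1 and 321 and 471 without DSM OE replicate 2.

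In 71 of the 10465 genes tested DSM OE differed from each of the 3 other lines in the same direction, 28 of them higher and 43 lower. GNAS, ARRDC2, RHOD, G0S2, BST2 and PSAT1, given above, were 6 of the 10 with the largest change over control. STC1, a secreted glycoprotein that acts on calcium and phosphate, had 57.6 and 51.5 FPKM in DSM OE, 27.5 and 31.7 FPKM in WT OE, 37.7 and 37.6 FPKM in KD, and 12.4 and 12.7 FPKM in control (2.03, SE 0.11, adjusted p = 0.00121). INHBE, an activin subunit and a target of the stress response, had 4.62 and 3.44 FPKM in DSM OE, 1.60 and 1.31 FPKM in WT OE, 0 and 0 FPKM in KD, and 0.190 and 0.147 FPKM in control (2.10, SE 0.15, adjusted p = 0.00225). RAB31, a GTPase of endosome sorting, had 2.67 and 2.16 FPKM in DSM OE, 12.3 and 19.3 FPKM in WT OE, 10.8 and 13.3 FPKM in KD, and 15.9 and 13.8 FPKM in control (-2.21, SE 0.23, adjusted p = 0.00685). RFPL4AL1, a member of a family of near-identical copies, had 0.903 and 0.946 FPKM in DSM OE, 9.83 and 8.79 FPKM in WT OE, 42.9 and 35.3 FPKM in KD, and 7.78 and 10.3 FPKM in control (-2.37, SE 0.16, adjusted p = 0.00213). In STC1 and INHBE the line order put DSM OE on top and control or KD lowest, and in RAB31 the other 6 libraries lay between 10.8 and 19.3 FPKM. All 10 kept the call over control with each library left out except GNAS, as given above.

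The rest of the 71 included cell surface and signalling genes. SDC1, a heparan sulfate proteoglycan, had 10.3 and 14.1 FPKM in DSM OE, 35.3 and 30.9 FPKM in WT OE, 36.2 and 31.4 FPKM in KD, and 38.5 and 38.6 FPKM in control (-1.60, SE 0.17, adjusted p = 0.00685). F3, tissue factor, which starts coagulation, had 14.8 and 14.3 FPKM in DSM OE, 26.3 and 28.2 FPKM in WT OE, 35.9 and 37.3 FPKM in KD, and 39.2 and 34.0 FPKM in control (-1.27, SE 0.10, adjusted p = 0.00356). HOXB9, a homeobox factor, had 31.3 and 31.1 FPKM in DSM OE, 17.6 and 16.0 FPKM in WT OE, 9.06 and 8.47 FPKM in KD, and 11.2 and 11 FPKM in control (1.41, SE 0.09, adjusted p = 0.0018). The scaffold protein AKAP12 had 28.4 and 25.8 FPKM in DSM OE, with the other 6 libraries between 7.55 and 10.3 FPKM, and the adaptor SASH1 had 14 and 14.6 FPKM in DSM OE, with the other 6 between 3.69 and 7.14 FPKM. HMGA1, an architectural chromatin protein, had 977 and 1200 FPKM in DSM OE, 552 and 529 FPKM in WT OE, 568 and 508 FPKM in KD, and 650 and 758 FPKM in control (0.62, SE 0.14, adjusted p = 0.0433). FZD8, a Wnt receptor, HEY1, a Notch target, and TIE1 were higher too, and CXCR4, a chemokine receptor, CAV1, TGFB2, E2F2, CDC6, ANLN, ASF1B, THBS1 and 5 mitochondrial transcripts (MT-ND4, MT-CO1, MT-ND4L, MT-CO2 and MT-ND5) were lower. Over control, SDC1, F3, HOXB9, AKAP12 and SASH1 kept their calls throughout and HMGA1 lost its call without any of the 8 libraries (highest adjusted p 0.159). With 1 library removed at a time the 71 genes became 8 (control replicate 2 or KD replicate 2) or 9 (control replicate 1 or KD replicate 1). They became 13 without WT OE replicate 2, 17 without WT OE replicate 1, 39 without DSM OE replicate 2 and 57 without DSM OE replicate 1.

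Differences from control were not spread evenly over the chromosomes. Of the genes tested, 10302 could be placed on a chromosome by symbol in the RefSeq annotation of GRCh38.p14, apart from those of the mitochondrial genome. On chromosome 18, 24.2% of 149 genes were higher in DSM OE and 3.36% lower, with a median log2 fold change of 0.41. On chromosome 20, 18.8% of 308 genes were lower and 3.90% higher, with a median of -0.22. Within chromosome 20 the first 20 Mb, where PCNA lies, had a median of -0.54 over 79 genes, 30 of which were lower and 4 higher. Chromosome 21 had a median of 0.26 with 12.7% of 102 genes higher, chromosome 7 a median of -0.22 with 10.5% of 484 genes lower, and chromosome 9 a median of -0.14 with 11.8% of 425 genes lower. Chromosome 6 had a median of 0.12 with 11.1% of 531 genes higher, and chromosome X one of 0.18 with 11.4% of 352 genes higher. Between 80000001 and 160000000 on chromosome 6, the medians of 20 Mb stretches ran from 0.28 to 0.41. MTHFD1L lies in the last of these stretches, where 9 of 50 genes were higher and none was lower. These shares stand beside 5.51% and 5.5% over all genes tested, and they are a description without a test.

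The libraries of a line were alike in this. For chromosome 18 the median difference from the control mean was 0.42 and 0.47 in the DSM OE libraries, 0.25 and 0.33 in WT OE, and 0.23 and 0.23 in KD. In the first 20 Mb of chromosome 20 it was -0.50 and -0.58 in DSM OE and -0.63 and -0.63 in WT OE, but 0.06 and 0.05 in KD. For chromosome 7 it was -0.20 and -0.20 in DSM OE, against 0.01 and 0.01 in WT OE and -0.06 and -0.06 in KD, and the median of DSM OE against WT OE was -0.21. For chromosome 10 it was 0.16 and 0.16 in DSM OE, against -0.03 and 0.00 in WT OE. The control duplicates differed by a median of 0.06 on chromosome 18 and -0.03 in that stretch of chromosome 20. On chromosome 18 the libraries of all 3 other lines were thus above the control mean, with DSM OE highest. In the first 20 Mb of chromosome 20 both overexpression lines were below it and KD was near it. On chromosomes 7 and 10 DSM OE also differed from WT OE. Of the genes given above, PCNA and BMP2 lie in the low stretch of chromosome 20, where BMP2 moved the other way. GALNT1 and RAB31 lie on chromosome 18 and fell while the median gene there was higher. These genes are examples and do not show how often the named genes moved with their chromosome. Gene copy number was not measured, and its part in these differences was not tested.

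**Figure D5:**
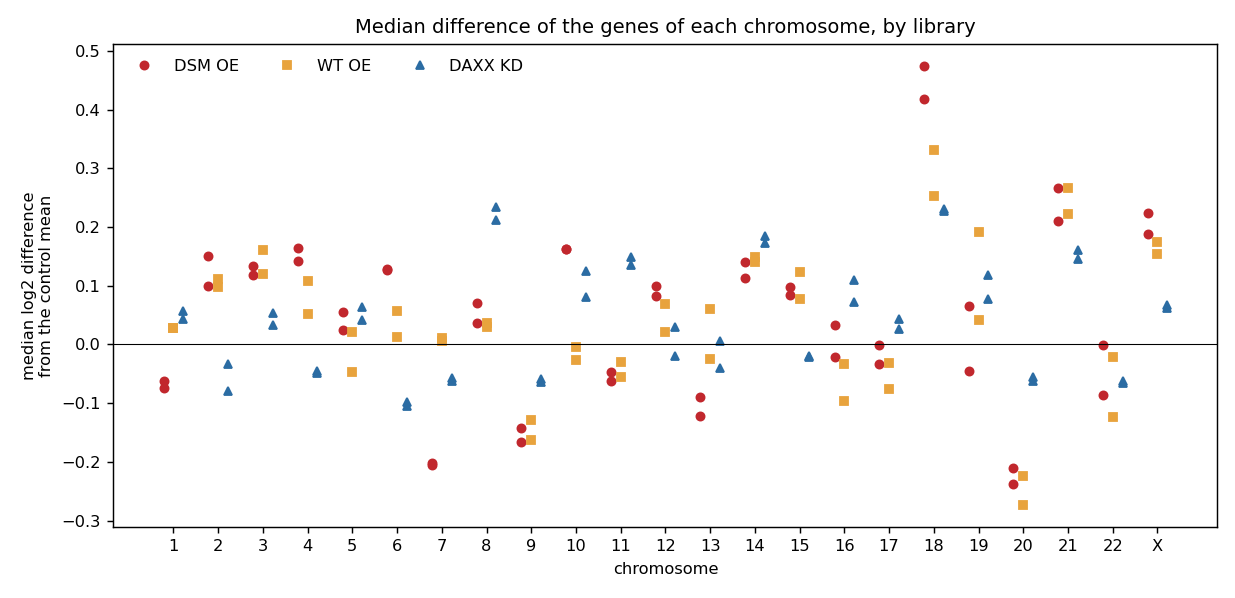
Median, over the genes tested on each chromosome (x axis), of the log2 difference from the control mean (y axis, log2 of FPKM + 1), with 1 point for each library of DSM OE, WT OE and KD. Chromosome 18 lies highest in DSM OE (0.42 and 0.47) and chromosome 20 is low in DSM OE and WT OE but near 0 in KD, while chromosome 7 is low in DSM OE (-0.20 and -0.20) and near 0 in WT OE.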

How the data were processed

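RNA of 8 cultures, 2 each of the DSM OE, WT OE, KD and control lines, was analysed, grouped by the genotype labels. The series design speaks of duplicates and the treatment notes of triplicates. The deposited FPKM values are the authors' own and were not changed. By the study's methods, poly A libraries were aligned to GRCh38 with HISAT2, assembled with StringTie and called with Ballgown, while the submitters' notes also name hg19. The step that gave each gene a single value is not described in the labels or methods, and a change in the transcript to which reads are assigned can move a gene's FPKM. The methods give 1 nominal number of raw reads for all libraries. Mapped fragments per library were not analysed, so the counting error of a value could not be given. The FPKM sum per library was 162318 to 166886. Symbols come from Ensembl identifiers (10410 of 10465 genes tested matched), positions and promoters from RefSeq tables of GRCh38.p14 by symbol.

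Genes that reached an FPKM of 1 in 2 or more of the 8 libraries were tested on log2(FPKM + 1), a scale that understates changes of low genes. The means of all 4 lines were fitted with limma 3.58.1 in R 4.3.3 (eBayes with trend, 4 residual degrees of freedom), so that the lines share 1 estimate of the spread. P-values are two-sided and adjusted by the Benjamini-Hochberg method over all genes tested in each comparison, at 0.05. An exact permutation test of 2 against 2 libraries cannot reach 0.05 and was not run. The members, the 42 gene lists and the rules were chosen with earlier results of these data known. Lists are described by counts and medians beside those of all genes, without a test. Named genes are DAXX, in DSM OE against control the 12 called genes that changed most in each direction, given a symbol, no overlap and a mean FPKM of 5 or more in the line where it is higher, the 5 largest each way against WT OE and KD, the 10 largest of those apart from all 3 other lines, and up to 4 called genes per list (where a list had no call, its 2 most abundant genes). Further members of small counts, and genes without a call that sit in the same pathway step, were named after their values were seen. The alternatives are given in the closing section. Some genes are not reported here.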

Additional observations from a re-analysis of the deposited data

How the results depend on the processing

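No named gene called in DSM OE against control changed direction in any alternative run. DAXX was not called by the adjusted p in any of them and ran from 1.04 to 1.59 without 1 library at a time. With 1 library left out, DSM OE against control gave 133 to 427 higher and 136 to 429 lower genes, DSM OE against WT OE 7 to 46 and 16 to 77, DSM OE against KD 313 to 753 and 288 to 826, and 8 to 57 genes were apart from all 3 other lines. A pseudocount of 0.1, no filter, median scaling, quantile normalization, no variance trend and a robust fit left all of these counts within 1.5 times. At a mean FPKM of at least 5, which tests fewer genes, DSM OE against WT OE gave 45 and 65 calls and DSM OE against KD 487 higher genes. Fitting the compared lines alone, which leaves fewer libraries for the spread, gave 66 higher and 83 lower genes against control, 374 and 426 against KD, 0 and 0 against WT OE (1387 at an unadjusted p under 0.05 in limma) and 0 genes apart. With the replicate number as a block there were 264 and 278 calls against control, 7 and 15 against WT OE and 7 genes apart. Same-numbered libraries did not deviate together (correlations over genes of -0.06 to 0.04). This cannot tell whether same-numbered cultures were handled together. With a fold over 1.3 and an unadjusted p under 0.05 as the rule, DAXX passed at 1.31, and there were 1306 and 1187 calls against control, 631 and 683 against WT OE, 1440 and 1485 against KD and 465 genes apart. Of 158 named genes other than DAXX, 93 lost the call over control with the compared lines alone, 48 with the block and 20 without the filter. Some of the 158 had no call over control to lose.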

Other observations

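Mapped fragments per gene and library were not analysed here, so low FPKM values carry a counting error that could not be given, and 2 cultures per line leave calls that mostly rest on single libraries. The share of genes called in DSM OE against control differed with level: at a mean FPKM of up to 2, 4.12% of 2259 genes were higher and 4.83% lower, and over 100, 9.17% of 218 genes were higher and 15.1% lower. DSM OE and control differ by the cDNA, its vector, the shRNA and the history of each line, which cannot be told apart here.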
